A study of Mus musculus with 69 samples.

Results

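The lungs compared here came from 10 of the 69 mice of the series: 5 that received 162 µg and 5 that received 18 µg of NRCWE-030, both collected on day 1. They were taken by material, dose and day as the sample titles give them, and no control entered the comparison, so that it shows the response to dose within 1 material. NRCWE-030 is a titanium dioxide nanomaterial (NM) that was given to female C57BL/6 mice in a single intratracheal instillation, suspended in water with 2% serum, and whole lungs were taken 24 h later. The mice were 5 to 7 weeks old on arrival and were kept for 1 to 3 weeks before exposure. Each array held Cy5-labelled RNA from 1 lung against Cy3-labelled Universal Mouse Reference RNA, a commercial pool, so every value below is a log2 ratio of lung to reference. Ratios of different genes cannot be ranked against each other, since each is set by the level in the reference too. Further groups of 5 served as background or for comparison: day 1 mice that received the vehicle alone or 54 µg of NRCWE-030, day 1 mice with 18 or 162 µg of a second nano-TiO2, NRCWE-025, and mice with 18 or 162 µg of NRCWE-030 on day 28.

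The lung clears deposited particles through resident macrophages, which take them up and release chemokines that draw neutrophils and monocytes from the blood. Acute phase proteins are secreted proteins that increase in inflammation, and although the liver is their main source, lung tissue also makes several of them, serum amyloid A3 among them. In RNA from whole lung, a change in the number of cells of a type and a change in RNA per cell cannot be told apart.

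Between 49.8% and 65.2% of the spots of the 10 arrays were well above background in Cy5, and no spot was saturated. The defining transcript of alveolar type 2 cells, Sftpc (surfactant protein C), had a mean log2 ratio of 6.55 at both doses. Its SD was 1.06 at 18 µg, where replicate 3 was lowest at 4.97, and 0.24 at 162 µg. Correlations across genes between pairs of arrays had a median of 0.95 within the 18 µg group and 0.96 within the 162 µg group. The lowest were 0.85 and 0.93. The 4 pairs of different dose on the same slide had a median of 0.96. Heart muscle transcripts differed widely between single lungs of both groups: Myl7, an atrial myosin light chain, had an SD of 2.53 at 18 µg and 2.41 at 162 µg, with means of 3.44 and 3.47. None of the 15 measured heart muscle markers passed the limma test between the doses, and 0 of them lay under 0.05 before adjustment.

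Genes that rose with the dose of NRCWE-030 far outnumbered those that fell. Of 18656 genes tested, 90 (0.482%) passed the limma test at an adjusted p under 0.05, with 78 (0.418%) higher and 12 (0.0643%) lower at 162 µg. The genes that rose did so by 0.39 to 6.59 on the log2 scale, with a median of 0.87, and the genes that fell changed by -0.33 to -0.94. The 8 largest rises belonged to serum amyloid A3, A1 and A2, the orosomucoids Orm1 and Orm2, the metalloproteinase inhibitor Timp1, lipocalin 2 and Ly6f. For all 90 genes the 5 arrays at 162 µg did not overlap the 5 at 18 µg, whereas 2.84% of all genes tested were so separated, 2.15% with the high dose above and 0.681% with it below. The 90 genes were called on these same arrays, which favours such a separation. In all, 1697 genes had an unadjusted p under 0.05, against 933 expected if no gene differed. The shares over all genes, 0.482% called and 50% with a higher mean at 162 µg, are the background for the lists below.

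The 10 arrays lay on 6 slides, of which 4 held 1 array of each dose, and on these 4 slides all 90 genes differed in the direction of the group means, against 22.5% of all genes with 1 direction on the 4 slides. The 90 genes were called on arrays that include those of these slides, which favours 1 direction. With slide as a fixed block 38 genes were called, 25 of them among the 90. With slide as a random block 276 were called, including all 90. The number called also depended on single lungs. It was 18, 16, 14, 69 and 43 without replicate 1, 2, 3, 4 or 5 at 162 µg. Without replicate 1, 2, 3, 4 or 5 at 18 µg it was 41, 23, 134, 29 and 37. In each of the 10 fits that left out an array, 14 genes were called, and 8 of them were also called under every one of 19 other settings: Saa1, Saa2, Saa3, Orm1, Mmp3, Wfdc17, Cstb and Slc7a8. Of the 19, 1 (Aquantile between arrays) leaves log ratios unchanged and so could not differ. The settings for combining probes could not change the values of genes with 1 probe, here all but Saa1 and Cstb.

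**Figure D1:**
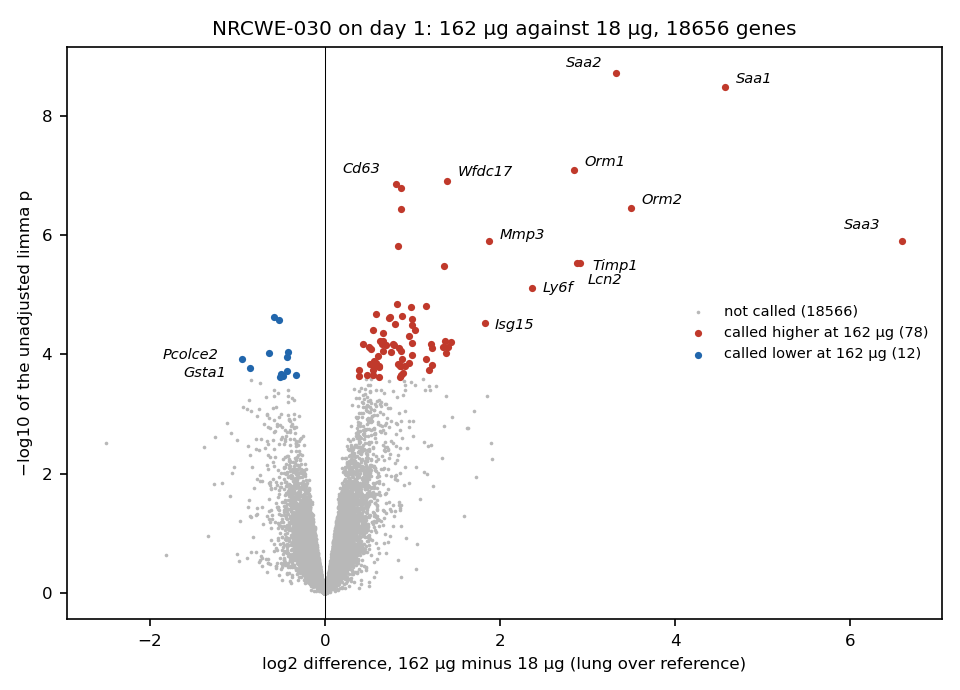
Each point is 1 of 18656 genes. The horizontal axis gives the log2 difference of the lung to reference ratio, 162 µg minus 18 µg of NRCWE-030 on day 1 (5 arrays each), and the vertical axis −log10 of the unadjusted limma p. The 78 genes called higher (red) reach 6.59 for Saa3, and the 12 called lower (blue) reach -0.94 for Pcolce2.

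The largest rise was that of a serum amyloid A gene. Saa3, the isoform made largely outside the liver, had log2 ratios of -1.07, -4.17, 0.38, -2.57 and -2.06 in the 5 lungs at 18 µg and of 5.47, 5.34, 4.63, 3.97 and 4.07 at 162 µg. The low-dose lungs were spread over several log2 units, and all lay far below the high-dose lungs. The difference was 6.59 ± 0.70 (SE), a 96.4-fold rise, with an adjusted p of 0.00238. On the 4 shared slides it was 4.24, 6.54, 6.13 and 6.54.

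Saa1 and Saa2 encode the circulating serum amyloid A proteins that associate with high-density lipoprotein. Saa1 had log2 ratios of 0.28, -0.40, 0.73, -0.12 and -0.24 at 18 µg and of 5.13, 5.24, 4.36, 4.31 and 4.05 at 162 µg. Its difference of 4.57 ± 0.27 (SE) had an adjusted p of 3.05e-05, the smallest in the comparison together with that of Saa2. Saa2 ranged from -0.06 to 0.91 at 18 µg and from 3.40 to 4.15 at 162 µg, a difference of 3.32 ± 0.19 (SE) with the same adjusted p. Replicate 3 was the highest low-dose lung for each of the 3 genes, and in no lung did the groups touch. Saa1 and Saa2 are near-identical copies, so their probes may share signal. Saa4, the constitutive member of the family, differed by 0.49 and did not pass the test (adjusted p = 0.468).

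The promoter windows of the 3 induced genes are shown because the genes lie close together on chromosome 7 and rose together. Each is the run of 250 bases before the RefSeq start (GRCm38.p6), written 5′ to 3′ on the gene's strand, at chr7:46715677-46715926 (minus strand) for Saa3, chr7:46742981-46743230 (minus strand) for Saa1 and chr7:46751583-46751832 (plus strand) for Saa2. Capitals mark matches, on either strand, to TTGCNNAA, letters found in binding sites of C/EBP factors, and in Saa3 also a match to the consensus of interferon regulatory factors.
Saa3: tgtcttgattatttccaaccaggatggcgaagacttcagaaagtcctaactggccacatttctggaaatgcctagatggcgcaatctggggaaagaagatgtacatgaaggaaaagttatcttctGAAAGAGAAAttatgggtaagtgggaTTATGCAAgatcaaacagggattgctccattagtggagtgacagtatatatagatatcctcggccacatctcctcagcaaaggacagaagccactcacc
Saa1: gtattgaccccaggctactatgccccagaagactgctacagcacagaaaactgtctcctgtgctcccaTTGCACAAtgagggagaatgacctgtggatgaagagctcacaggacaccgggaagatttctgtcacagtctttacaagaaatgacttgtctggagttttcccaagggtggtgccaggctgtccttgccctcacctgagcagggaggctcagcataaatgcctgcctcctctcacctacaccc
Saa2: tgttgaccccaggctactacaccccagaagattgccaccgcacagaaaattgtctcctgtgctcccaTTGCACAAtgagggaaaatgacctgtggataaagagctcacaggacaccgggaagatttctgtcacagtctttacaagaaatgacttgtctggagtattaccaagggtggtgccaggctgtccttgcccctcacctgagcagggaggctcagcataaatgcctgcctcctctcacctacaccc
The windows of Saa1 and Saa2 shared an unbroken stretch of 65 identical bases, while the longest stretch that either shared with Saa3 was 8 bases. A match to TTGCNNAA stood in the windows of 5 of the 7 acute phase genes that rose and had a window (Saa1, Saa2, Saa3, Orm2 and Lcn2). It stood in 13 of the 64 windows of all genes that rose (20.3%) and in 10.1% of the 14836 windows of genes tested. In the 7 acute phase windows the NF-kB consensus matched in 0, and those of interferon regulatory factors and of STAT in 1 each. The letters were respelled once after a first search, so these counts were not set in advance. Saa1 and Saa2, which share the stretch of 65 bases, are counted separately. Such a match describes the letters only and does not show that a factor was bound.

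The orosomucoids, lipocalin-like carriers in plasma, rose as well. Orm1 had log2 ratios of 0.15, 0.30, 0.46, -0.14 and -0.09 at 18 µg and of 3.19, 3.54, 3.35, 2.39 and 2.44 at 162 µg, a difference of 2.85 ± 0.23 (SE, adjusted p = 5e-04). Orm2 ranged from -0.08 to 1.55 at 18 µg and from 3.52 to 4.83 at 162 µg, with a difference of 3.50 ± 0.33 (SE, adjusted p = 0.000868). The high-dose lungs were thus separate from the low-dose lungs by more than the spread of either group. Both probes were well above background on only 3 of the 5 arrays at 18 µg, which leaves their low-dose level less certain than their high-dose level. Orm3, a close copy, differed by 0.41 and did not pass the test.

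Lcn2 encodes lipocalin 2, which binds bacterial iron carriers and is made by neutrophils and by airway epithelium. Its log2 ratios were 3.06, 1.38, 2.36, 1.79 and 1.20 at 18 µg and 5.39, 5.12, 4.74, 4.40 and 4.52 at 162 µg. Replicate 1 was the highest lung of both groups, and the groups did not overlap. The rise was 2.88 ± 0.33 (SE, adjusted p = 0.0043), or 7.36-fold.

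Of the 25 acute phase genes measured, 9 rose and none fell, with a median difference of 0.74 over the list and 0.482% of all genes called. Beside the 6 genes above these were Serpina3n (a serine protease inhibitor, 1.44), Cfb (factor B of the alternative complement pathway, 1.38) and Itih4 (an inter-alpha-trypsin inhibitor heavy chain, 0.62). The rise was not shared by the whole list: haptoglobin (Hp) differed by 0.16, C-reactive protein (Crp) by 0.02 and the fibrinogen chains Fga, Fgb and Fgg by -0.10, -0.89 and -0.52, and none of these passed the test. With the scanner's own log ratios, Serpina3n differed by 0.42 (adjusted p = 0.799) and Cfb by 0.89 (adjusted p = 0.132). Of the 10 fits that left out an array, 3 called Serpina3n, 3 called Cfb and 2 called Itih4.

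**Figure D2:**
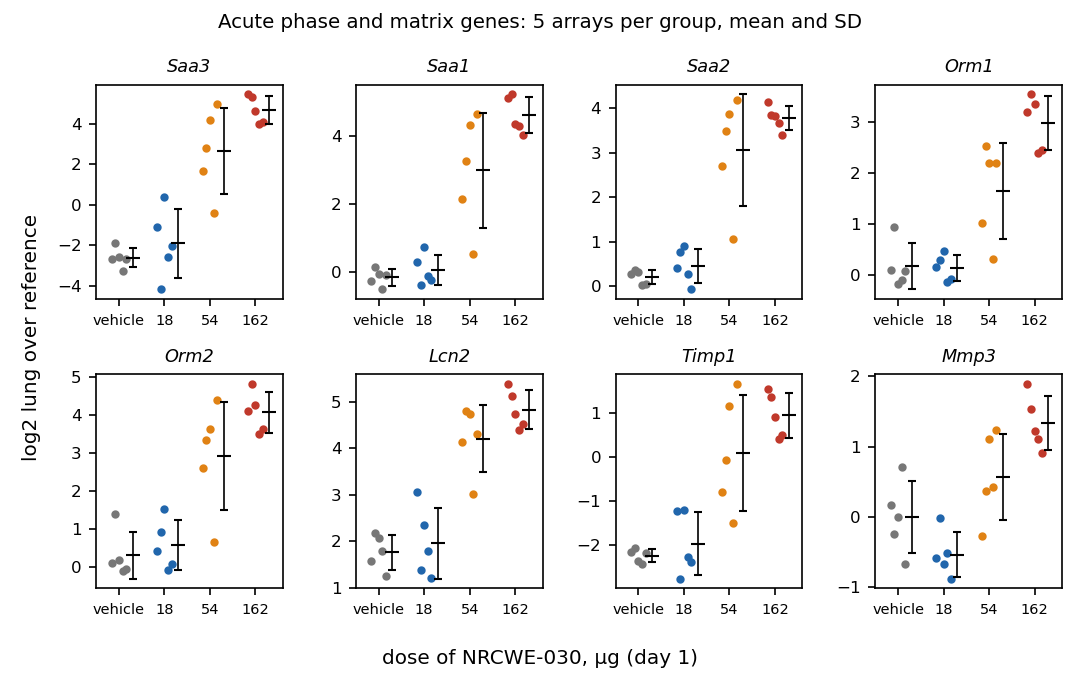
Log2 lung to reference ratios (vertical axes, own scale per gene) of 8 genes on day 1 in lungs given vehicle, 18, 54 or 162 µg of NRCWE-030 (horizontal axes). Points are the 5 arrays of a group, and the bar beside them gives the mean and SD. In all 8 panels the lungs at 162 µg lie above those at 18 µg, and the mean at 54 µg lies between. Single lungs at 54 µg reach outside that gap: for Saa3 1 lies among the lungs at 18 µg (-0.39). For Timp1 1 lies above all at 162 µg (1.66).

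Genes that act on the extracellular matrix contributed a pair of strong rises. Timp1, a secreted inhibitor of matrix metalloproteinases, had log2 ratios of -1.22, -2.76, -1.21, -2.28 and -2.38 at 18 µg and of 1.53, 1.37, 0.92, 0.40 and 0.50 at 162 µg. The difference was 2.91 ± 0.34 (SE, adjusted p = 0.0043), and its probes gave 2.23 and 3.60. Mmp3, the metalloproteinase stromelysin-1, ranged from -0.88 to -0.02 at 18 µg and from 0.91 to 1.89 at 162 µg, a rise of 1.87 ± 0.20 (SE, adjusted p = 0.00238). Neither gene's groups overlapped. These were the only called genes among 26 matrix proteases and inhibitors (7.69%, with 0.482% of all genes called), whose median difference was 0.13. Timp2, a relative of Timp1, differed by -0.54 and did not pass the test. None of the 24 measured collagen, elastic fibre and matricellular genes was called by limma, at a median of 0.22, and 6 lay under 0.05 before adjustment.

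The chemokine genes had large differences with few calls. Ccl9 (MIP-1 gamma, which acts through Ccr1) had log2 ratios of 0.04, -0.20, -0.54, -0.37 and -0.35 at 18 µg and of 1.69, 1.51, 0.89, 0.41 and 0.94 at 162 µg, a rise of 1.37 ± 0.22 (SE, adjusted p = 0.0303). It was the only one called of 18 CC chemokines, although the median difference of the list was 0.85. Ccl2, the main monocyte attractant, had ratios from -4.66 to -2.79 at 18 µg and from -3.30 to -0.33 at 162 µg, so its groups overlapped, and its difference of 1.89 ± 0.50 (SE) had an adjusted p of 0.166. The differences of Ccl7 (1.91) and Ccl4 (1.86) did not pass the test either, with adjusted p-values of 0.227 and 0.0735.

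Among 12 CXC chemokines, at a median of 0.43, Cxcl9 alone was called. Cxcl9, a ligand for Cxcr3 on T cells, ranged from 0.13 to 0.48 at 18 µg, where 1 of 5 arrays was well above background, and from 0.88 to 1.67 at 162 µg. It rose by 0.87 ± 0.14 (SE, adjusted p = 0.0321) and was called in 3 of the 10 fits that left out an array. The neutrophil attractants Cxcl1 and Cxcl5 differed by 0.56 and 0.42 and did not pass the test.

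Of 24 measured neutrophil markers 3 rose (12.5%, with 0.482% of all genes called) and none fell, while the median over the list was 0.05. Beside Lcn2 these were the receptor for granulocyte colony-stimulating factor, Csf3r, and the decoy receptor for interleukin 1, Il1r2. Csf3r had log2 ratios of 1.25, 1.45, 0.80, 1.24 and 0.87 at 18 µg and of 1.87, 2.60, 2.38, 2.39 and 2.14 at 162 µg, a rise of 1.16 ± 0.16 (SE, adjusted p = 0.0165). Il1r2 ranged from 0.20 to 0.60 and from 1.06 to 2.38, a rise of 1.35 ± 0.22 (SE, adjusted p = 0.0306). The probes of Il1r2 differed by 0.77 and 1.94, and 3 of the 10 fits that left out an array called the gene. By contrast, the calprotectin subunits S100a8 and S100a9, abundant in neutrophils, differed by 0.86 and -0.17 and the granule genes Camp, Mpo and Ngp by -0.32, -0.45 and -0.14, with none of them called. Mean levels over the list ran from 1.19 to 1.46 in the low-dose lungs and from 1.41 to 1.81 in the high-dose lungs. With the scanner's log ratios Csf3r differed by 0.35 (adjusted p = 0.857).

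Il1rn, the secreted antagonist of the interleukin 1 receptor, was the 1 gene called of 25 cytokines and growth factors. It rose by 0.83 ± 0.09 (SE, adjusted p = 0.00258), from a range of -0.12 to 0.23 at 18 µg to one of 0.78 to 1.06 at 162 µg. Its probes differed by 0.11 and 1.55, so the size of the rise depends on the probe. The negative regulators and sensors of the NF-kB and Toll-like receptor pathway (26 measured) and the feedback genes of STAT3 (16 measured) held no gene called by limma, with medians of 0.08 and 0.06 and with 5 and 2 genes under 0.05 before adjustment.

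Macrophage and myeloid surface receptors showed moderate rises. Of 25 Fc receptors, scavenger receptors and lectins 6 rose (24%, with 0.482% of all genes called), at a list median of 0.37. These were Clec4d (1.21), Fcgr1 (1.18), Clec4n (1.16), Clec4a2 (1.03), Msr1 (0.89) and Fcer1g (0.66). Of the 10 fits that left out an array, 4 called Clec4a2, 3 called Clec4d and 3 Clec4n. Fcgr1 was called in 2, and Msr1 and Fcer1g in 1 each. Clec4n encodes dectin-2 and Clec4d a related lectin, both of which signal through the shared Fc receptor chain that Fcer1g encodes. Clec4n had log2 ratios of 2.30, 1.80, 2.11, 2.51 and 2.76 at 18 µg and of 3.71, 3.83, 3.11, 3.57 and 3.07 at 162 µg, so that the lowest high-dose lung lay just above the highest low-dose lung. Fcgr1, the high-affinity IgG receptor, ranged from -1.34 to -0.36 at 18 µg and from 0.00 to 1.06 at 162 µg. Clec4a2 has 3 probes, whose differences ran from 0.10 to 1.03, and with the mean over probes the gene differed by 0.56 and was not called (adjusted p = 0.0664).

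Of 25 macrophage markers 3 rose (12%, with 0.482% of all genes called), at a median of 0.27. These were Fcgr1, Msr1 (a scavenger receptor) and Cd63 (a membrane protein of late endosomes and lysosomes). Cd63 had the most even values, with log2 ratios of -1.13, -1.21, -1.22, -0.97 and -1.05 at 18 µg and of -0.27, -0.29, -0.27, -0.31 and -0.36 at 162 µg. The high-dose lungs were nearly equal, and the rise of 0.82 ± 0.07 (SE) had an adjusted p of 5e-04. Chil3, a lectin abundant in alveolar macrophages, differed by -1.26 without passing the test, and single high-dose lungs ranged from 5.55 to 8.06. Mean levels over the macrophage list ran from 1.00 to 1.24 at 18 µg and from 1.14 to 1.53 at 162 µg, so the 2 ranges overlapped.

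Most interferon-stimulated genes had a higher mean at the high dose, and few of them passed the test singly. Of 34 measured, 33 had a higher mean at 162 µg, as had 50% of all genes tested, at a list median of 0.50. The 4 called (11.8%, with 0.482% of all genes called) were Isg15 (1.82), Oasl2 (1.22), Usp18 (0.99) and Ifit3 (0.84). Isg15 encodes a ubiquitin-like modifier and Usp18 the protease that removes it. Isg15 had log2 ratios of -1.18, -1.64, -1.57, -0.81 and -0.48 at 18 µg and of 1.34, 0.52, 0.97, 0.06 and 0.55 at 162 µg, with an adjusted p of 0.0212. The lowest high-dose lung, replicate 4, lay above the highest low-dose lung, replicate 5. Ifit3, a translation inhibitor induced by interferon, ranged from 1.59 to 2.19 and from 2.56 to 3.19, and its near copy Ifit3b also rose, by 0.61. Irf7, a transcription factor of the response, differed by 0.96 with an adjusted p of 0.111. Called in 5 of the 10 fits that left out an array, Isg15 was the most stable of the 4, the others being called in 1 to 3.

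The promoter of Isg15 is shown because the group is defined by its response to interferon. It covers the 250 bases before the RefSeq start at chr4:156200819-156201068 (GRCm38.p6, minus strand), written 5′ to 3′ on the gene's strand, and capitals mark a run of 3 overlapping matches to the consensus of interferon regulatory factors.
Isg15: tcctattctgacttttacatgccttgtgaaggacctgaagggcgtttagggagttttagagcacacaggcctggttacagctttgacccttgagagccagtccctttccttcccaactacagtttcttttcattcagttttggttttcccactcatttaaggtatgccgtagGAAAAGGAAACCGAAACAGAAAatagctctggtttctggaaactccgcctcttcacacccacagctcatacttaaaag
That consensus was found in 2 of the 3 called interferon-stimulated genes with a window (Isg15 and Ifit3), in 10 of the 64 genes that rose and had a window (15.6%), and in 6.44% of all 14836 windows. The consensus of NF-kB matched in 3 of the 64 windows (4.69%) and in 5.18% of all. The letters TTCNNNGAA, found in STAT sites, matched in 7 of the 64 (10.9%) and in 7.74% of all. These counts too were made after the motifs had been respelled once.

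Smaller groups added single genes. Of 21 complement genes, at a median of 0.33, Cfb and C1ra (a protease of the C1 complex, 0.78) rose (9.52%, with 0.482% of all genes called). C3, the central component, differed by 1.20 with an adjusted p of 0.0649. Of 36 DNA replication genes 33 had a higher mean at 162 µg, as had 50% of all genes tested, at a median of 0.33. Mean levels of single lungs over this list overlapped, from -2.62 to -1.67 at 18 µg and from -1.86 to -1.65 at 162 µg. The origin licensing genes Mcm6 and Cdt1 were called (5.56% of the list). Mcm6, a helicase subunit, rose by 0.87 ± 0.16 (SE, adjusted p = 0.0404), and Cdt1, which loads that helicase, by 0.75 ± 0.11 (SE, adjusted p = 0.0199). Of the 10 fits that left out an array, 2 called Mcm6 and 5 called Cdt1. None of 34 mitosis genes was called by limma, at a median of 0.02, and 0 lay under 0.05 before adjustment.

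Several of the 15 largest rises fell outside these groups. Ly6f, of the Ly6 family of anchored surface proteins, had log2 ratios of 1.37, 0.18, 1.14, 0.12 and -0.09 at 18 µg, where 3 of 5 arrays were well above background, and of 3.20, 3.24, 3.17, 2.52 and 2.41 at 162 µg. The rise was 2.36 ± 0.30 (SE, adjusted p = 0.00947). Wfdc17, a small protein of the whey acidic protein family, rose by 1.39 ± 0.12 (SE, adjusted p = 5e-04), with low-dose lungs from 1.13 to 1.68 and high-dose lungs from 2.70 to 3.01. Vnn3, of the pantetheinase family, rose by 1.41 ± 0.23 (SE, adjusted p = 0.0306), and by 0.64 with the scanner's log ratios, where it was not called.

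A pair of genes with small but even rises is named here after its values were seen, since both genes were called in every fit. Cstb, the cysteine protease inhibitor cystatin B, had log2 ratios from -1.51 to -1.30 at 18 µg and from -0.68 to -0.44 at 162 µg. Slc7a8, a carrier of neutral amino acids, ranged from 0.22 to 0.43 and from 1.09 to 1.42. Both rose by 0.87, with an SE of 0.07 for Cstb and of 0.08 for Slc7a8.

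**Figure D3:**
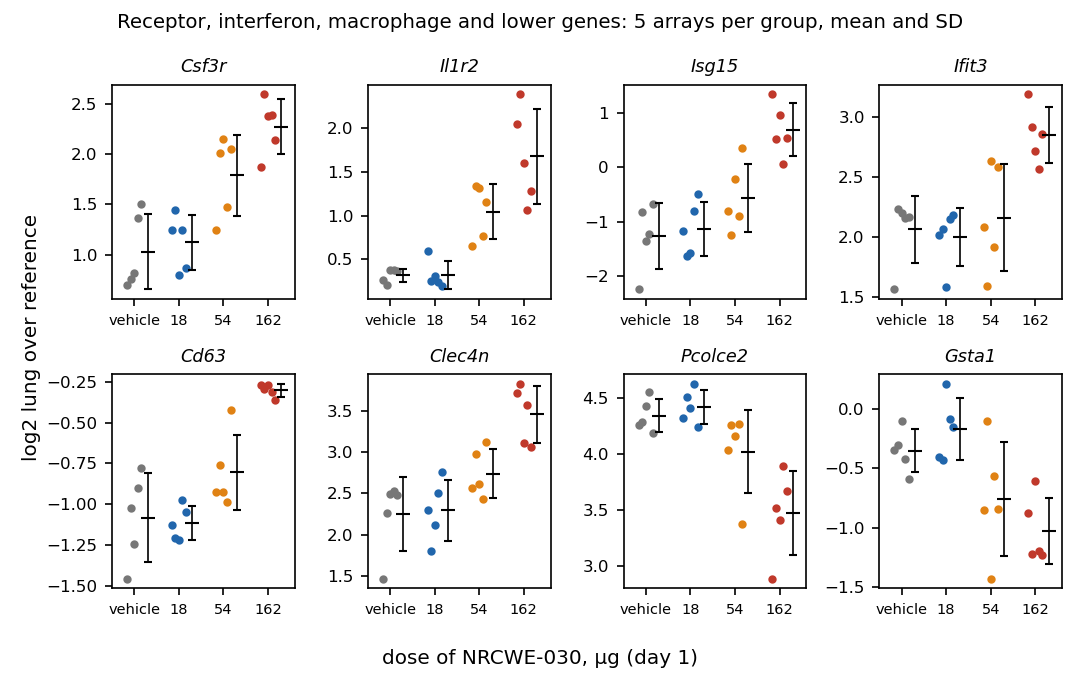
Log2 lung to reference ratios (vertical axes, own scale per gene) of 8 further genes on day 1 by dose of NRCWE-030 (horizontal axes), with 5 arrays per group as points and the mean and SD as a bar. The first 6 genes are higher and Pcolce2 and Gsta1 lower in all lungs at 162 µg than in any at 18 µg.

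The 12 genes that fell changed by less than the genes that rose, with a median of -0.51. Pcolce2, an enhancer of procollagen C-proteinase, had log2 ratios of 4.32, 4.50, 4.40, 4.62 and 4.24 at 18 µg and of 2.89, 3.51, 3.41, 3.89 and 3.67 at 162 µg. It fell by 0.94 ± 0.16 (SE, adjusted p = 0.0366), and replicate 1 at 162 µg was the lowest lung. Gsta1, a glutathione S-transferase, had ratios of -0.40, -0.43, 0.21, -0.09 and -0.15 at 18 µg and of -0.88, -1.22, -0.61, -1.20 and -1.23 at 162 µg, a change of -0.85 ± 0.15 (SE, adjusted p = 0.0425). No lung at 162 µg reached the range of the low dose for either gene.

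The other genes among the 10 largest falls were Fam43a (-0.64), Irf2bp2 (a transcriptional corepressor, -0.58), Prkce (protein kinase C epsilon, -0.52), Arrdc3 (an arrestin domain protein, -0.52), Tnik (a kinase of the Wnt pathway, -0.50), Rnd3 (an atypical small GTPase, -0.48), Pkig (an inhibitor of protein kinase A, -0.44) and Rftn2 (a lipid raft protein, -0.43). None of the 10 was called in more than 5 of the 10 fits that left out an array, and Arrdc3, Rnd3 and Rftn2 were called in none of them. For Rnd3 the 18 µg lungs alone stood apart, with a mean of 0.16. Its means were -0.32 at 162 µg, -0.38 at 54 µg and -0.37 in the day 1 vehicle lungs. With the brightest probe per gene Prkce differed by -0.13 and Tnik by -0.18, neither of them called.

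Gsta1 was also the 1 gene called of 30 Nrf2 targets, whose median was -0.02. The list was mixed, with the heme oxygenase Hmox1 at 0.74, the ferritin chain Fth1 at 0.91 and the glutathione S-transferase Gstm3 at -0.87, none of them called. Of 19 xenobiotic oxidases 18 had a lower mean at 162 µg, where 50% of all genes tested had a higher mean. The list median was -0.36 and none was called by limma, with 6 under 0.05 before adjustment. Mean levels of single lungs over this list overlapped, from 2.74 to 3.27 at 18 µg and from 2.50 to 3.06 at 162 µg. Of 12 endothelial markers 11 had a lower mean, at a median of -0.24, and none was called by limma, with 4 under 0.05 before adjustment. Their mean levels in single lungs also overlapped, from 4.36 to 4.84 at 18 µg and from 4.39 to 4.62 at 162 µg. Over all genes, 1697 of 18656 lay under 0.05 before adjustment. None of the 11 markers of alveolar type 2 cells, 7 of type 1 cells, 11 of club and goblet cells, 12 of ciliated cells, 12 of B cells and 17 of T and NK cells was called by limma. Before adjustment 1 type 1 marker, 2 B cell markers and 1 T and NK cell marker lay under 0.05, and 0 of the type 2, club and goblet, and ciliated cell markers.

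Among the gene sets that the study derived from lung disease models of other series (biclusters), the 6 analysed here held 13 of the called genes, and the other biclusters were not analysed here. Over all genes tested 0.482% were called. Bicluster-3 had 5 called of 16 measured (31.2%), Aif1 and Ccl9 among them, at a median of 0.87. Bicluster-1 had 4 of 17 (23.5%: Saa3, Timp1, Clec4n and Igf1) at a median of 0.54. Aif1, a macrophage calcium-binding protein, rose by 0.88 ± 0.13 (SE, adjusted p = 0.0199), and Igf1, insulin-like growth factor 1, by 0.59 ± 0.10 (SE, adjusted p = 0.0404). With the brightest probe alone Aif1 differed by 0.55 and Igf1 by 0.54, and neither was called. Of the 10 fits that left out an array, 6 called Aif1 and 1 called Igf1. Bicluster-8 held 2 called genes of 15 (Clec4a2 and Serpina3n), bicluster-7 held 1 of 19 (Il1rn) and bicluster-10 held 1 of 16, Pcolce2, which fell. None of the 17 measured genes of bicluster-9 was called by limma, at a median of 0.04, and 2 lay under 0.05 before adjustment.

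**Figure D4:**
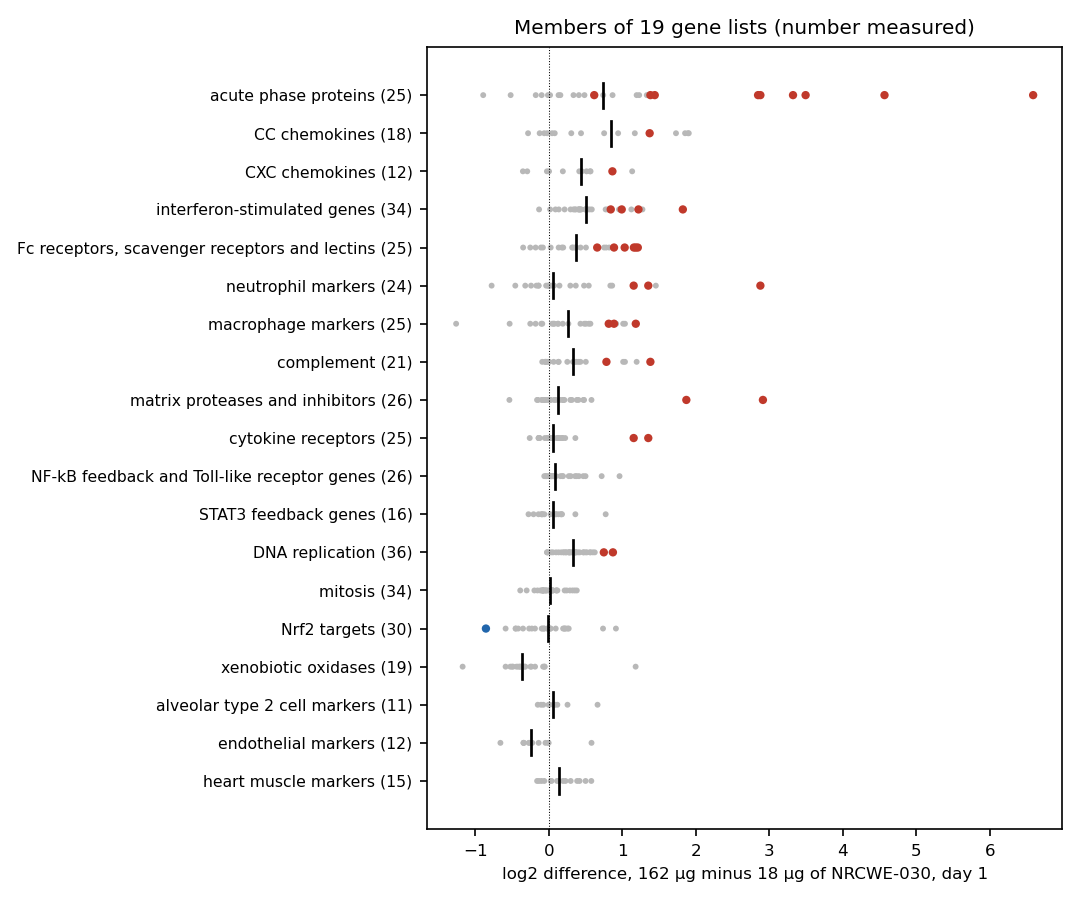
Members of 19 gene lists, 1 row per list with the number measured, by their log2 difference between 162 and 18 µg of NRCWE-030 on day 1 (horizontal axis). Red points were called higher, blue points lower and grey points not called, and black bars give list medians. The acute phase list holds 9 red points out to 6.59, while the markers of alveolar type 2 cells, endothelium and heart muscle hold none.

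The lungs at 54 µg show where the middle dose lay, with each dose 3 times the one before. For 86 of the 90 genes (95.6%) the mean at 54 µg was between the means at 18 and 162 µg, against 39.8% of all genes tested. The called genes were chosen for a large difference between the outer doses, which makes such a position more likely. The median position of the 54 µg mean was 0.467 of the way from 18 to 162 µg for the genes that rose. This pooled value is close to the midpoint on this log scale of dose, but lists differed. For all measured acute phase genes the median difference from 18 µg was 0.53 at 54 µg and 0.74 at 162 µg. For interferon-stimulated genes it was 0.10 at 54 µg and 0.50 at 162 µg. The difference between these lists was not tested. A limma test of 54 µg against the mean of both outer doses called none of the genes (0), and the ordinary F-test also called 0. Before adjustment 702 genes lay under 0.05, fewer than the 933 expected if no gene differed.

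The called genes were also more uneven at the middle dose. For 66 of the 90 called genes (73.3%) the SD at 54 µg exceeded that at both 18 and 162 µg, against 25.6% of all genes, although genes even within the outer doses were more likely to be called. Saa3 had log2 ratios of 1.69, 2.83, 4.22, -0.39 and 4.98 at 54 µg, a range that reached from near the low-dose lungs into the high-dose lungs. Saa1 (2.16, 3.28, 4.34, 0.52 and 4.67) and Timp1 (-0.80, -0.08, 1.15, -1.49 and 1.66) kept the same order of lungs. Over the 78 genes that rose, replicate 4 at 54 µg was the lowest lung of its group for 48 genes, with a median position of 0.0908, and replicate 5 the highest for 49, with a median position of 0.815. These arrays had 57.3% and 57.9% of spots above background.

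Vehicle lungs were near the low dose about as often for the genes that rose as for all genes. In 70 of these 78 (89.7%) the mean of the 5 day 1 controls lay within the range of the 18 µg lungs. The share was 86.7% over all genes tested and 58.3% (7 of 12) for the genes that fell. Saa3 had a control mean of -2.62 ± 0.48 (SD, n = 5) against -1.90 ± 1.70 (SD, n = 5) at 18 µg, and Saa1 had -0.16 ± 0.24 against 0.05 ± 0.46. For 67 of the 78 all 5 high-dose lungs lay above all 5 controls, as did 2.9% of all genes. Among the genes that fell all 5 high-dose lungs lay below all 5 controls for 7 of 12, as did 1.65% of all genes. The called genes were chosen with the same high-dose lungs, which favours such a separation. Mmp3 had a higher mean in controls (-0.01 ± 0.51, SD, n = 5) than at 18 µg (-0.54 ± 0.32, SD, n = 5). Dnpep, called higher, is named here after its values were seen. Its mean was -0.42 at 162 µg, near the controls (-0.38), and -0.85 at 18 µg.

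For NRCWE-025 on day 1, the same comparison of 162 with 18 µg used other arrays. No gene passed limma's test there (0 of 18656), the smallest adjusted p being 0.0817. Before adjustment 2380 genes lay under 0.05, against 933 expected if no gene differed. The 90 genes called for NRCWE-030 nevertheless had the same sign in 88 cases (97.8%), against 53.9% of all genes, with a median of 0.47 for the genes that rose. Saa3 differed by 5.41 ± 1.13 (SE) with NRCWE-025, Saa1 by 3.39 ± 0.73 and Timp1 by 2.34 ± 0.55. The high-dose lungs of NRCWE-025 varied more, with an SD of 3.00 for Saa3 against 0.69 for NRCWE-030.

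The test of the difference between the materials by limma gave 0 called genes, as did the ordinary F-test. Before adjustment 1123 genes lay under 0.05, against 933 expected if no gene differed. For Saa3 the difference between the materials was 1.18 ± 1.46 (SE, adjusted p = 0.877) and for Csf3r 0.98 ± 0.37 (SE, adjusted p = 0.796). All 78 genes that rose had a smaller difference with NRCWE-025, which their selection on NRCWE-030 favours. No dose response was therefore shown to be particular to NRCWE-030, and with errors of this size a difference in the Saa3 response of 1 log2 unit could not be resolved.

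On day 28 the difference between the doses of NRCWE-030 was smaller for several acute phase and matrix genes. The day 28 arrays called 2 of 18656 genes (0.0107%) between 162 and 18 µg, named here after their values were seen: Tspan4, a tetraspanin, at 0.67 and Spon2, a secreted matrix protein, at -1.45. The difference between the days was called for 8 genes (0.0429%), of which 7 had the larger rise on day 1. Saa1 differed between the doses by 4.57 on day 1 and 0.55 on day 28, a change of 4.02 ± 0.38 (SE, adjusted p = 1.62e-05). Saa2 differed by 3.32 and 0.03, a change of 3.30 ± 0.26 (SE, adjusted p = 9.95e-07).

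The other genes with a larger rise on day 1 were Orm1 (2.43 ± 0.32), Orm2 (2.78 ± 0.43), Mmp3 (1.95 ± 0.26), Timp1 (2.43 ± 0.42) and Csf3r (1.32 ± 0.23), each given as the change between days with its SE. Mmp3 differed by -0.07 on day 28 and Csf3r by -0.17. Pkig, which fell on day 1, had a difference of 0.23 on day 28.

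Not all leading genes were shown to differ between the days. Saa3 still differed by 2.26 ± 0.74 (SE) on day 28 and Lcn2 by 1.89 ± 0.51, although neither was called on that day, and their changes between days had adjusted p-values of 0.507 and 1. Wfdc17, Cxcl9 and Rtp4, an interferon-induced chaperone, were the 3 genes of the 78 whose difference was larger on day 28, at 1.49, 1.25 and 0.97. Of the 78 genes, 69 (88.5%) had a higher mean at 162 than at 18 µg on day 28, against 58.5% of all genes with a higher mean at 162 µg on day 1.

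**Figure D5:**
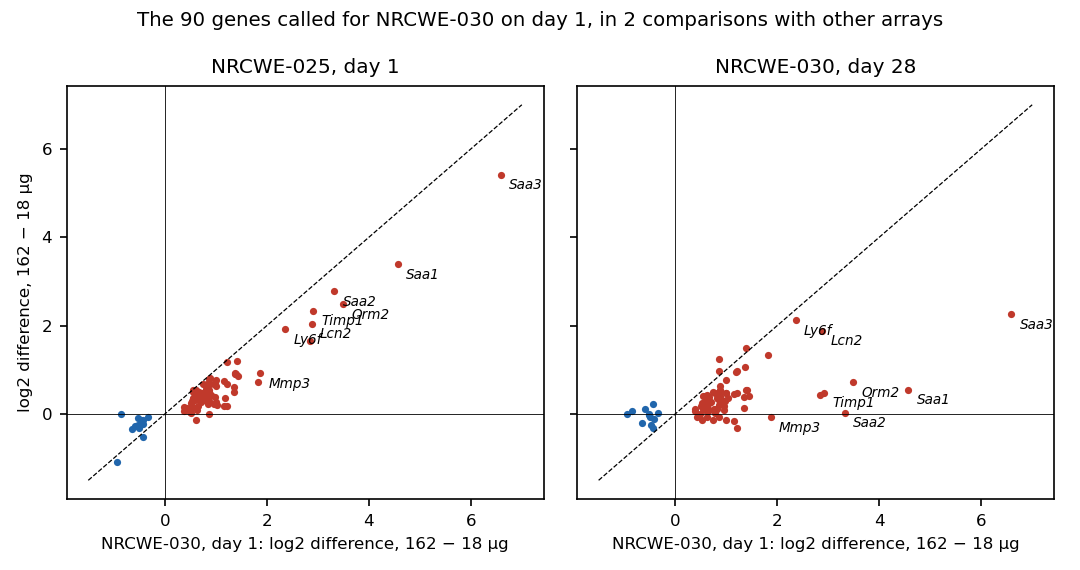
The 90 genes called for NRCWE-030 on day 1 (red higher, blue lower at 162 µg), with their log2 difference between 162 and 18 µg there on the horizontal axes and the same difference for NRCWE-025 on day 1 (left) or NRCWE-030 on day 28 (right) on the vertical axes. The dashed line marks equal differences. Saa3 lies at 6.59 against 5.41 on the left and 2.26 on the right, and Saa2 and Mmp3 lie near 0 on the right.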

How the data were processed

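Whole-lung RNA of 69 mice was hybridised with 1 array per mouse, without a dye swap. Per the file headers, the deposited Agilent Feature Extraction files hold linear intensity values per spot, a log10 ratio of Cy5 over Cy3 and flags of other kinds marking outlying or dim spots. The deposited series matrix holds log2 ratios that the authors made by LOWESS within arrays, here an alternative. The members and gene lists were chosen with earlier results of these data known.

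From the median signals, local backgrounds that the scanner marked as outlying were set to the median of the others on that array, normexp (offset 50, which understates ratios of dim spots) and loess within arrays were applied, and marked spots were left out (limma 3.58.1, R 4.3.3). Probes were combined by median per gene symbol: 27479 of 41174 probes (66.7%) matched RefSeq, which gave 18656 genes without missing values. Dose contrasts, the material and day differences and the 54 µg contrast were tested two-sided with limma in the arrays concerned, with a call where the Benjamini-Hochberg adjusted p was under 0.05. All p-values given are from these fits, and the number of arrays limits their precision. The tests were checked on simulated data.

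Named genes were the 15 largest rises and 10 largest falls, up to 4 called members per list (41 lists), the 5 called genes with the smallest p of the material, day and 54 µg tests (of which the day test alone called any), and marker genes as level checks. Motifs, respelled once after a first search, were counted on both strands of RefSeq promoter windows with Python 3.11.15, and plots drawn with matplotlib 3.10.9. Results for some genes are not reported here.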

Additional observations from a re-analysis of the deposited data

Results flagged for a closer look

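In 3 of 90 groups tested (2 groups for each of the 45 called genes named by rule), a single lung stood apart from the other 4 of its group, where chance alone gives about 1 group in 20. Pkig was at 0.34 in replicate 1 at 162 µg, against 0.48 for the nearest lung. Il1r2 was at 0.60 in replicate 1 at 18 µg, against 0.31 for the nearest lung. Ifit3 was at 1.59 in replicate 3 at 18 µg, against 2.02 for the nearest lung.

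For 8 genes the difference between 162 and 18 µg of NRCWE-030 changed between day 1 and day 28 by the limma test of that change. On the log2 scale, day 1 minus day 28, the change was 4.02 for Saa1, 3.30 for Saa2, 2.78 for Orm2, 2.43 for Orm1, 2.43 for Timp1, 1.95 for Mmp3, 1.32 for Csf3r and -0.66 for Pkig.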

How the results depend on the processing

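None of the 45 called genes named by rule reversed its direction under the alternatives run. The 90 genes called between the doses became 27 with the scanner's log ratio (18 shared), 38 with slide as a fixed block, 276 with slide as a random block, 23 with scan day as a fixed block (22 shared), 297 in a fit of 69 arrays (68 shared), 16 with the ordinary F-test (15 shared), 152 in a fit of 15 arrays (74 shared) and 192 in a fit of 20 arrays with controls (77 shared). Without single replicates the count ranged from 14 to 134. The 8 genes called between days became 4 with the scanner's log ratio, 15 with slide as a random block, 3 with scan day as a fixed block, 4 in the fit of 69 arrays, 5 with the ordinary F-test and 13 with array weights, and ranged from 5 to 14 without single replicates. The counts for the materials and for 54 µg were 0 under every alternative run. The cause of these changes was not tested. Of these 45 genes, 6 were called under all 19 alternatives (1 of which leaves log ratios unchanged) and 11 in all 10 fits without an array. The labels give no replicate numbers shared between groups, so arrays were matched by slide alone. Of the 78 genes that rose, 69 were well above background on all 10 arrays, and dim spots at 18 µg limit the low-dose level of the others, Saa2, Orm1, Orm2, Ly6f, Alpl, Cxcl9, Ifit3b, Tmigd3 and Msr1.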

Other observations

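Several genes outside the lists were called, and those given here were picked after their values were seen, so they stand for no group. Sdf2l1, a protein of the endoplasmic reticulum, rose by 0.96, Rrbp1, a ribosome-binding membrane protein, by 0.67, and the disulfide isomerases Pdia6 and P4hb by 0.65 and 0.56. The probes of Rrbp1 ran from 0.22 to 0.89 and those of Pdia6 from 0.20 to 0.72. Cyba, a subunit of the NADPH oxidase, rose by 0.55, Slc11a1, a metal carrier of the phagosome, by 0.62, and Tfrc, the transferrin receptor, by 0.76. Sting1, an adaptor in the sensing of cytosolic DNA, rose by 0.92, the kinase Ripk3 by 0.66 and the exonuclease Trex1 by 0.52.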
